A study of Mus musculus with 66 samples.

Results

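The collagen chain genes were taken as every gene whose symbol is Col, a number, the letter a and a number, which gave 44 genes of the 45706 gene identifiers in the deposited tables. Their RNA was followed through 66 libraries of mice carrying 5 spontaneous Rorb alleles and of wild-type controls. Rorb encodes a nuclear receptor of the retinoid-related orphan receptor family, and mice lacking it lift their limbs high as they walk. For brain hemisections and extruded spinal cords, C57BL/6J mice were the controls of Rorb h1/h1, h2/h2, h3/h3 and h4/h4, while DBA/1J mice were those of Rorb h5/h5. Cortex, hippocampus and cerebellum were dissected from separate Rorb h5/h5 and DBA/1J animals. The h1 allele is a large duplication that takes in the first exon of the Rorb1 transcript, on C57BL/6J. The h2 and h3 alleles, whose causal change is not known, arose on B6(Cg)-Tyr c-2J/J, h4 is a premature stop codon on B6.129S7-Il1r1 tm1/mx/J, and h5 removes the start codon of Rorb1 on DBA/1J. There were 4 mice in each h2, h3 and h4 group and 3 mice in every other group. Mice were 7.9 to 9.6 weeks old for brain and spinal cord and 7.0 weeks old for the dissected regions. Within a tissue, h1 to h4 share 1 set of 3 C57BL/6J libraries as their control. For h2, h3 and h4 the allele and the background strain cannot be told apart, since their controls are plain C57BL/6J.

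Collagens are trimers of chains wound into a triple helix. Fibrillar chains assemble into banded fibrils in the extracellular space, type IV chains form the sheet of basement membranes around blood vessels and under the pia, and type VI chains form beaded filaments next to both. Fibril-associated chains decorate fibrils, short-chain types form lattices, multiplexins are cut to release C-terminal fragments such as endostatin, and transmembrane chains are anchored in the plasma membrane. In the central nervous system fibrillar collagen is made chiefly by fibroblasts of the meninges and around vessels, while several fibril-associated and transmembrane chains are made by neurons. The 44 genes fall into 11 fibrillar, 9 fibril-associated, 6 type IV, 6 type VI, 3 short-chain, 2 multiplexin, 4 transmembrane and 3 other chains (Col7a1, Col26a1 and Col28a1).

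Total counts per library ranged from 32889755 to 59120536 with a median of 42391893. Counts scaled to the library total (CPM) are used below to set one gene beside itself across libraries, and TPM, which is scaled for length, to set genes beside each other. Rorb RNA, which checks the labels where an allele changes it, ranged from 9.998 to 15.4 CPM in h4 brain against 51.5 to 61.6 CPM in C57BL/6J brain. It ranged from 143.5 to 154.1 CPM in h5 cortex against 81.5 to 104.5 CPM in DBA/1J cortex. In h3 brain it was at 52.0 to 55.6 CPM, within the C57BL/6J range, so it cannot check the h3 label. Spinal cord and brain separated by their oligodendrocyte markers, summed at 20664 to 22470 TPM in C57BL/6J cord and at 5871 to 6714 TPM in C57BL/6J brain. Of the libraries, 3 stood apart by markers of other tissue. Replicate 3 of h5 spinal cord had 792 TPM of Schwann cell markers where the DBA/1J cords had 17.2 to 22.2 TPM. Replicate 2 of h5 hippocampus had 244 TPM of choroid plexus markers and replicate 3 of h5 cerebellum 24.2 TPM, where the other libraries of those regions had 1385 to 6318 TPM. Replicate 3 of the dissected h5 mice was labelled female but had 57.8 to 86.2 CPM of the Y-linked gene Ddx3y, and the label was kept. Ddx3y was at 0, 57.8 and 71.3 CPM in h5 cortex and at 0, 0 and 64.1 CPM in DBA/1J cortex. By this gene, sex was thus not balanced between those groups. In bulk tissue, fewer cells of a type and less RNA per cell cannot be told apart.

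In wild-type tissue the collagens were low to moderate in level, and their order differed by region. Between 30 and 37 of the 44 genes had a mean of at least 1 TPM in a wild-type group, 7 to 10 had a mean of at least 10 TPM, and the highest mean was 44.1 TPM. In DBA/1J cortex the 3 highest genes were Col6a1, a core chain of type VI filaments, at 33.0 ± 2.07 TPM (SD, n = 3), Col4a2 at 24.2 ± 3.54 TPM and the neuronal transmembrane chain Col25a1 at 21.3 ± 4.60 TPM, and the latter pair lay within their spread. In DBA/1J hippocampus Col9a3, a fibril-associated chain best known from cartilage, led at 34.5 ± 8.57 TPM, followed by Col25a1 at 32.9 ± 4.59 TPM and Col4a2 at 31.6 ± 3.2013 TPM, values that overlapped. In DBA/1J cerebellum Col9a3 at 44.1 ± 8.37 TPM and Col18a1, the source of endostatin, at 43.6 ± 5.56 TPM did not differ beyond their spread, and the fibrillar chain Col27a1 followed at 29.6 ± 5.16 TPM. The spinal cord was led by the fibril-associated chain Col16a1 at 34.9 ± 6.15 TPM in C57BL/6J and 31.1 ± 1.96 TPM in DBA/1J, then by the fibrillar chain Col11a2 at 24.0 ± 3.56 and 29.3 ± 7.44 TPM. Next came Col11a1 at 21.5 ± 0.450 TPM in C57BL/6J cord and Col4a2 at 21.9 ± 1.98 TPM in DBA/1J cord. In the brain hemisections Col25a1 led at 24.1 ± 2.98 TPM in C57BL/6J and 24.7 ± 4.36 TPM in DBA/1J, with Col6a1 and Col4a2 between 18.6 and 19.6 TPM in both strains. Col10a1 and Col28a1 reached 1 TPM in 0 of the 66 libraries.

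**Figure D1:**
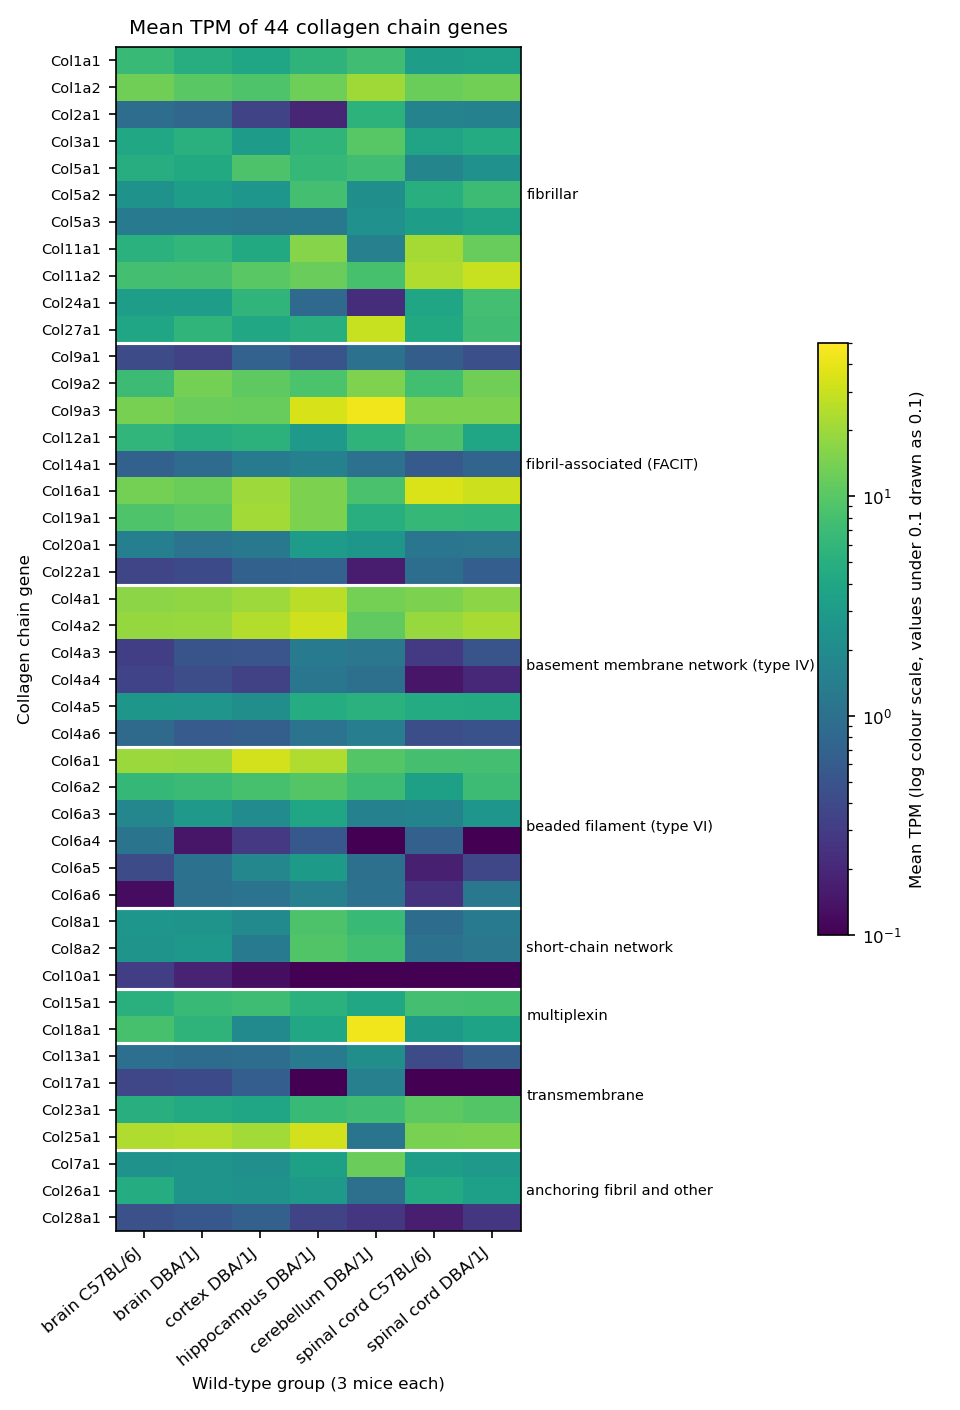
Mean TPM of the 44 collagen chain genes (rows, grouped by class) in 7 wild-type groups of 3 mice (columns), on a log colour scale. Col16a1 and Col11a2 are bright in spinal cord, Col18a1 and Col9a3 in cerebellum, where each mean is above 43 TPM, and Col6a1 in cortex.

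The TPM of a chain also depends on which transcripts the reads were assigned to, because the estimated effective length of a gene is the abundance-weighted mean over its transcripts. For 22 of the 44 genes the largest effective length among the 66 libraries was more than 1.5 times the smallest. For Col3a1 in cortex it was 5296, 4635 and 4665 bases in the DBA/1J libraries and 3221, 2684 and 2967 bases in the h5 libraries, so the groups did not overlap. Its TPM was 2.45, 3.11 and 3.65 in DBA/1J and 9.11, 10.9 and 9.78 in h5 cortex, a wider gap than that of the counts given below. For Col15a1, whose product lies on the outer face of vascular and muscle basement membranes, the effective length ran from 1569 to 2912 bases in DBA/1J cortex and from 2696 to 4136 bases in h5 cortex, and the TPM from 4.60 to 9.84 and from 3.07 to 4.94. Differences between groups were therefore tested on counts.

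Promoters are shown for 4 of the 5 genes with the smallest p-values in h5 cortex. Each covers 250 bases before and 50 bases after the start site and comes from RefSeq on GRCm38.p6, 5′ to 3′ on the strand of the gene. The windows are chr1:45311288-45311587 (plus strand) for Col3a1, chr6:4505368-4505667 (plus) for Col1a2, chr10:76725995-76726294 (minus) for Col6a1 and chr10:76623355-76623654 (minus) for Col6a2. Capitals mark 4 motifs searched on both strands, so that a reverse match shows the complement. They are the CCAAT box, the GC box GGGCGG, the TATA box TATAAA and the letters AGGTCA, which are the core of the element that ROR proteins bind.
Col3a1: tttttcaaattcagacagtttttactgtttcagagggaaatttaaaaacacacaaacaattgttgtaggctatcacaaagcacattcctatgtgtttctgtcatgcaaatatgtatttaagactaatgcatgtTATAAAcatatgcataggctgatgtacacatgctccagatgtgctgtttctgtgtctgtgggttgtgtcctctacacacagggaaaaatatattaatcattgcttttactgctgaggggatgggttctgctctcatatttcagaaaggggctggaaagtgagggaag
Col1a2: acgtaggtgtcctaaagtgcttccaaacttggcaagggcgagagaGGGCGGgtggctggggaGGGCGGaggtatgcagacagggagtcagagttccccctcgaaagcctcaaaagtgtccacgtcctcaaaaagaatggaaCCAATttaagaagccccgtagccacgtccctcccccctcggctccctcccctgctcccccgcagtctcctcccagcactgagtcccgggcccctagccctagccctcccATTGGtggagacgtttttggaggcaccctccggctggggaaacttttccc
Col6a1: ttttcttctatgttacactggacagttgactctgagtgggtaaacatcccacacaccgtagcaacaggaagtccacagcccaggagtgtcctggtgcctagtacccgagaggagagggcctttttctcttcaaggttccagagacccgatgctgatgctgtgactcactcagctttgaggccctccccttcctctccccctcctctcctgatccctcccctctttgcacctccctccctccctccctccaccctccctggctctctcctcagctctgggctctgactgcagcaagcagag
Col6a2: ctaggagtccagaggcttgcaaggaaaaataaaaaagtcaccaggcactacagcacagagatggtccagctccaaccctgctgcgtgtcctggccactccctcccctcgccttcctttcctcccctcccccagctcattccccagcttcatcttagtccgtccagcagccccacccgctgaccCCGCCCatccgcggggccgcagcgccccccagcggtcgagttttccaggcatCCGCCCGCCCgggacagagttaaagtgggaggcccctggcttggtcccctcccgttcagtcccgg
The Col3a1 promoter held TATAAA starting 117 bases before the start site. Col1a2 held CCAAT from 109 bases before the start site, a reverse match to CCAAT at the start site, and GGGCGG at 2 places. Col6a2 held GGGCGG on the reverse strand at 3 places, of which 2 overlap, and a further Col6a2 promoter in the table (chr10:76623581-76623880, not shown) held it once. Col6a1 held none of the 4 motifs. AGGTCA was in none of these 4 windows, which says only that these letters are not there. Of the 38 promoters found for 35 collagen genes, 34.2% held CCAAT, 60.5% GGGCGG, 13.2% TATAAA and 21.1% AGGTCA on either strand, and the same shares among all 32851 promoters of this length were 37.4%, 35.7%, 13.6% and 16.3%. A match is a string of letters and not a binding site.

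Whether losing the start codon of Rorb1 is accompanied by a change of collagen RNA in the cortex was asked with 3 h5 and 3 DBA/1J mice. The 5 smallest p-values belonged to the fibrillar chains of types I and III and to core chains of type VI filaments, all with estimates above 0. No collagen passed the test in edgeR, whose adjusted p-values follow, while DESeq2 called these 5. Col3a1, the chain of type III fibrils (chr1:45311538-45349706), was at 15.1, 15.6 and 14.8 CPM in h5 and 7.51, 7.48 and 8.75 CPM in DBA/1J cortex. Every h5 library was above every DBA/1J library, and the log2 fold change was 0.91 ± 0.105 (SE), with an adjusted p of 0.0688. Col1a2, the second chain of type I collagen (chr6:4505618-4541543), was at 34.2, 33.6 and 32.6 CPM in h5 against 21.2, 22.6 and 21.4 CPM. These values did not overlap either, with a log2 fold change of 0.60 ± 0.0765 (SE) and an adjusted p of 0.0877. Its partner Col1a1 (chr11:94936224-94953042) was at 26.7, 21.3 and 16.5 CPM in h5 against 10.24, 10.01 and 11.8 CPM in DBA/1J. The h5 libraries again lay above all controls, but they spread from 16.5 to 26.7 CPM, and the log2 fold change of 0.98 ± 0.169 (SE) had an adjusted p of 0.269.

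Col6a1 (chr10:76708792-76726044) was at 113.4, 95.1 and 86.9 CPM in h5 and at 72.5, 62.2 and 69.7 CPM in DBA/1J cortex, a log2 fold change of 0.51 ± 0.105 (SE) with an adjusted p of 0.450. Col6a2 (chr10:76595756-76623630), which pairs with Col6a1 and Col6a3 in the type VI monomer, was at 27.7, 24.4 and 24.7 CPM against 17.8, 14.9 and 17.8 CPM, a log2 fold change of 0.58 ± 0.102 (SE) with an adjusted p of 0.275. Neither gene overlapped between the groups. The remaining chain of the monomer did overlap, with Col6a3 at 6.39, 7.71 and 5.85 CPM in h5 and 6.29, 5.41 and 5.55 CPM in DBA/1J. Groups did not overlap for 7 of the 43 collagens, and that share over all genes was not computed. The 5 genes with the smallest p-values were picked in these same libraries. Of the 43 collagens tested in cortex, 0 passed an adjusted p of 0.05, beside 0% of the 17220 genes tested. At an unadjusted p under 0.05 there were 8 (7 higher and 1 lower), 18.6% of the collagens, beside 6.42% of all genes. DESeq2 called 5 collagens, Col3a1, Col1a2, Col1a1, Col6a1 and Col6a2, all higher, beside 0.235% of 25095 genes with a p-value. Leaving out DBA/1J replicate 3 gave 5 calls in edgeR, beside 1.26% of all genes, with Col5a2 (adjusted p = 0.0407) among them and Col6a1 (0.0637) not, and leaving out any other single library gave 0. The median log2 fold change was 0.02 over the collagens tested and close to 0 over all genes (-0.0005), and the 6 type IV chains were split 3 higher and 3 lower.

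Other matrix and vascular genes of h5 cortex were set beside these values. The 20 meningeal fibroblast markers summed to 219 to 244 TPM in DBA/1J and 233 to 253 TPM in h5 cortex, 15 had estimates above 0 and 0 were called. Such a sum is weighted to the most abundant markers. Dcn ranged from 12.5 to 19.6 CPM in h5 and from 9.83 to 13.7 CPM in DBA/1J cortex. Lum ranged from 2.17 to 3.84 and from 2.01 to 2.50 CPM, and Ogn from 6.82 to 8.86 and from 6.89 to 7.03 CPM. Slc22a6 ranged from 3.43 to 4.65 and from 3.49 to 3.86 CPM, and each of these markers overlapped. The 10 endothelial markers summed to 236 to 367 TPM and 249 to 259 TPM, and the 10 mural cell markers to 181 to 244 and 189 to 205 TPM. None of these 3 marker lists had a member at 0 in every library of a cortex group, and their part in the collagen values was not tested.

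**Figure D2:**
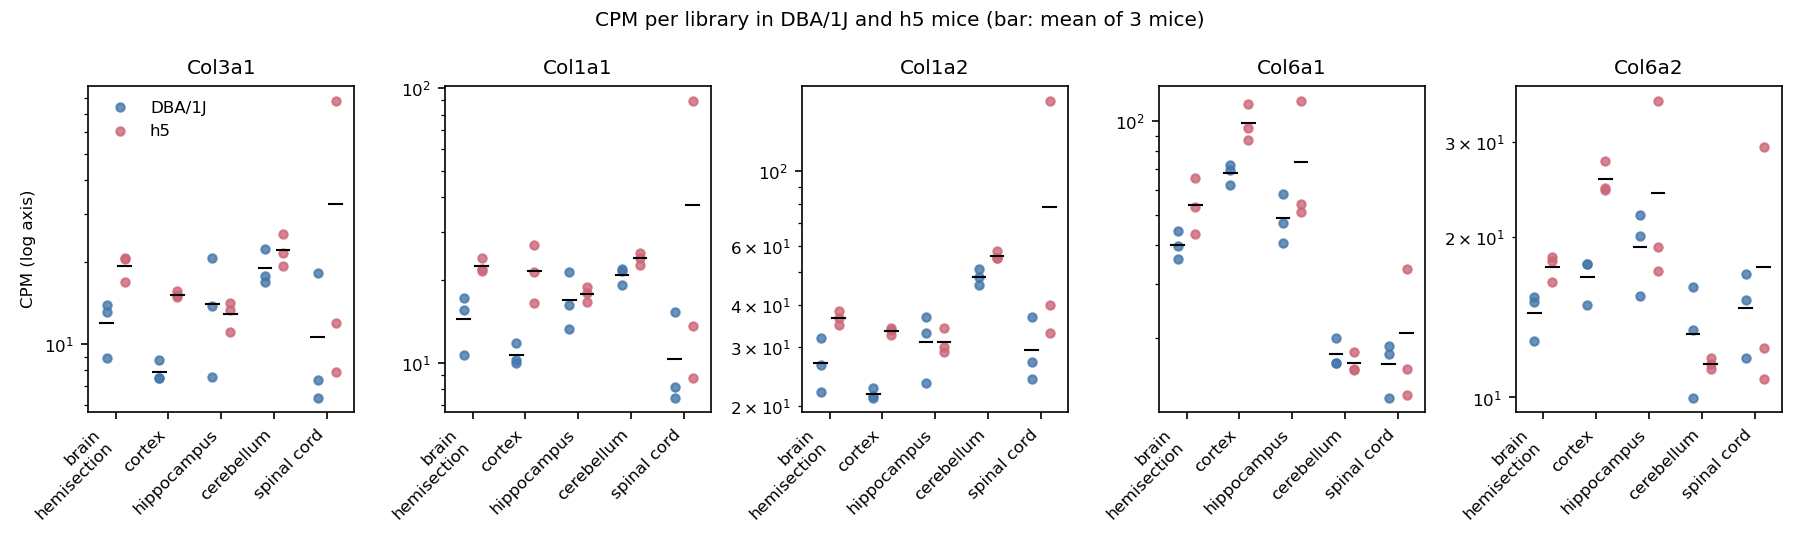
CPM (log axis) of 5 collagen chain genes in each DBA/1J (blue) and h5 (red) library of 5 tissues, with the mean of 3 mice as a bar. In cortex all h5 points lie above all DBA/1J points for each gene, and in spinal cord 1 h5 library, at 89.7 CPM for Col1a1, lies far above the rest.

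In hippocampus the same 5 genes overlapped between h5 and DBA/1J mice. Col3a1 was at 11.04, 13.4 and 14.2 CPM in h5 and at 7.54, 20.7 and 13.8 CPM in DBA/1J hippocampus, with a log2 fold change of -0.15 ± 0.302 (SE). Col1a2 was at 29.95, 29.0 and 34.2 CPM against 23.5, 36.7 and 32.9 CPM. Col6a1 was at 51.0, 116.4 and 54.2 CPM against 40.5, 58.5 and 47.2 CPM, its high value coming from the h5 library with few choroid plexus transcripts. The 5 smallest p-values in hippocampus belonged to Col15a1, Col25a1, Col12a1, Col6a6 and Col2a1, each with an adjusted p of 0.997. Col15a1 was at 9.86, 8.94 and 9.60 CPM in h5 and 8.17, 7.50 and 6.68 CPM in DBA/1J, so the groups did not overlap. Col25a1 was at 100.2, 114.0 and 117.8 CPM against 84.8, 103.7 and 85.9 CPM, and its groups overlapped. Col12a1, a fibril-associated chain, had 17.8, 18.5 and 11.3 CPM in h5 and 11.03, 12.7 and 11.6 CPM in DBA/1J. Col6a6, a minor type VI chain, had 7.53, 10.1 and 7.90 CPM against 7.10, 7.29 and 5.73 CPM, which did not overlap. Col2a1, the cartilage fibril chain, stayed between 0.239 and 0.935 CPM and overlapped, as Col12a1 did. Of the 43 collagens tested, 0 were called, beside 0.0118% of all genes, and 2 (4.65%) had an unadjusted p under 0.05, beside 4.22% of all genes. DESeq2 also called 0.

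The difference between the cortical and the hippocampal h5 effect was tested as an interaction. It called 0 of 43 collagens, beside 0% of 17866 genes, and DESeq2 called 0. An unadjusted p under 0.05 was found for 5 (11.6%), beside 2.84% of all genes. The estimate for Col3a1 was 1.06 ± 0.361 (SE) on the log2 scale, for Col1a1 0.93 ± 0.259 and for Col1a2 0.62 ± 0.187, each with an adjusted p of 0.9999 in edgeR. The estimate for Col6a1 was -0.07 ± 0.358. Against cerebellum the interaction called 0 of 43 collagens, beside 0.00555% of all genes, and 0 by DESeq2. There, 9 (20.9%) had an unadjusted p under 0.05, beside 6.09% of all genes. An h5 effect on collagens that differs between regions was thus not called.

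Brain hemisections of other h5 mice gave estimates in the cortical direction. Col3a1 was at 20.45, 16.9 and 20.7 CPM in h5 and 13.9, 8.90 and 13.1 CPM in DBA/1J brain, Col1a1 at 22.0, 21.6 and 24.1 CPM against 15.5, 10.7 and 17.25 CPM, and neither overlapped between the groups. Their log2 fold changes were 0.63 ± 0.154 and 0.57 ± 0.148 (SE), with adjusted p-values of 0.485 and 0.541. Col1a2 was at 34.9, 36.5 and 38.2 CPM against 26.4, 21.95 and 31.9 CPM. Across the 43 collagens tested in h5 brain, 36 had estimates above 0, the median was 0.22 against 0.0036 over all genes, and 0 were called, beside 0% of 17299 genes. At an unadjusted p under 0.05 there were 11 (25.6%), beside 5.8% of all genes, and DESeq2 called 2, Col1a1 and Col3a1, beside 0.267% of all genes. The 20 meningeal markers summed to 292 to 364 TPM in h5 and 267 to 314 TPM in DBA/1J brain, which overlap, and their part was not tested.

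In h5 cerebellum 0 of 42 collagens were called, beside 0.012% of all genes, and DESeq2 called 0. With an unadjusted p under 0.05 there were 13 (9 higher and 4 lower), 31.0% of the collagens, beside 5.62% of all genes. The smallest p was that of Col1a2, at 55.3, 57.7 and 55.3 CPM in h5 and 48.3, 51.0 and 46.0 CPM in DBA/1J, groups that did not overlap (log2 fold change 0.21 ± 0.0569 (SE), edgeR adjusted p = 0.688). The lowest estimates were those of the short-chain genes Col8a1 (-1.12) and Col8a2 (-1.07). The 10 choroid plexus markers summed to 24.2 to 2084 TPM in h5 and 2615 to 3786 TPM in DBA/1J cerebellum, and their part was not tested.

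Spinal cord of h5 mice depended on 1 library. Col1a1 was at 13.6, 8.77 and 89.7 CPM in h5 and 8.16, 7.47 and 15.3 CPM in DBA/1J cord, and Col3a1 at 11.95, 7.92 and 78.0 CPM against 7.39, 6.37 and 18.2 CPM. The high value in both genes was that of replicate 3. The log2 fold change was 1.83 ± 0.764 (SE) for Col1a1 and 1.59 ± 0.779 (SE) for Col3a1, and without replicate 3 it was 0.10 and -0.12. In that library the 20 meningeal markers summed to 581 TPM where the other 5 libraries had 89.3 to 122.5 TPM, with none of the 20 at 0 in either group. The part of those cells in the collagen values was not tested. Of 41 collagens tested 0 were called, beside 0.00581% of all genes, and 0 were called by DESeq2. At an unadjusted p under 0.05 there were 9 (22.0%), all higher, beside 8.9% of all genes. Without replicate 3, 18 collagens had estimates above 0 and 23 below, in place of 31 and 10.

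The h1, h2, h3 and h4 alleles were then compared with C57BL/6J. Over all 13 comparisons of a mutant with its control, 7 calls were made by edgeR for 6 collagen genes among 556 tests, beside 0.478% of the tests of all genes. The 7 calls were all higher in the mutant and all in h2 or h4 mice. DESeq2 also called collagens in h1, h3 and h5 mice, of which Col12a1 in h3 cord was lower. The core type VI chain Col6a2 rose in h4 brain, at 16.0, 20.7, 16.0 and 16.1 CPM against 12.4, 12.5 and 13.4 CPM in C57BL/6J. The groups did not overlap, and the log2 fold change was 0.47 ± 0.0865 (SE, n = 4 and 3), with an adjusted p of 0.0342. It was the only edgeR call among the 44 collagens in h4 brain, 2.27%, beside 0.703% of all genes, and leaving out any 1 library except h4 replicate 1 ended it, with adjusted p-values of 0.0585 to 0.121. DESeq2 called 2, Col6a2 and Col6a1, beside 1.71% of all genes. Col6a2 was also above every control library in h1 brain (16.5, 15.4 and 15.9 CPM), h2 brain (15.6, 15.8, 13.5 and 16.0 CPM) and h3 brain (16.7, 16.6, 15.2 and 16.1 CPM). Those 3 differences were not called by edgeR, with adjusted p-values of 0.874, 0.405 and 0.129, and all 4 share the control libraries.

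In h1 brain 0 of 44 were called, beside 0% of all genes, and DESeq2 called 0. There, 5 (11.4%) had an unadjusted p under 0.05, beside 4.23%. In h2 brain 0 of 44 were called, beside 0.136%, 7 (15.9%) had an unadjusted p under 0.05, beside 7.45%, and DESeq2 called 0. In h3 brain 0 of 44 were called, beside 0.164%, and 5 (11.4%) had an unadjusted p under 0.05, beside 10.4%. DESeq2 called 1 in h3 brain, Col6a2, beside 0.729% of all genes. The median log2 fold change over the collagens was 0.03, 0.02 and 0.02 in these brains and 0.11 in h4 brain, against medians from -0.0005 to 0.005 over all genes.

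In h2 spinal cord 3 of 42 collagens rose, 7.14%, beside 2.09% of all genes. Col6a3, the longest chain of the type VI monomer (chr1:90766860-90844001), was at 8.74, 9.37, 7.95 and 8.64 CPM in h2 and at 5.16, 6.23 and 5.58 CPM in C57BL/6J cord. The groups were far apart, with a log2 fold change of 0.62 ± 0.0924 (SE) and an adjusted p of 0.00161, and Col6a3 in h4 cord lay between them at 6.50, 7.32, 6.80 and 7.41 CPM. Col11a2, a minor fibrillar chain that sets fibril width, was at 65.3, 71.9, 71.7 and 67.6 CPM against 58.9, 58.2 and 61.1 CPM (log2 fold change 0.22 ± 0.0433 (SE), edgeR adjusted p = 0.0131). Col1a2 was at 40.5, 39.8, 39.8 and 32.2 CPM in h2 against 30.6, 30.6 and 32.6 CPM. Its lowest h2 library lay within the control range, the log2 fold change was 0.28 ± 0.0693 (SE) and the adjusted p 0.0442, and the call was lost without any 1 library except h2 replicate 4. Without C57BL/6J replicate 1, h2 replicate 2 or h2 replicate 3 only 1 of these 3 calls was left.

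In h4 spinal cord 3 of 42 collagens rose, 7.14%, beside 1.75% of all genes. Col1a2 was at 43.2, 48.7, 44.1 and 40.4 CPM, above every C57BL/6J library, and its log2 fold change of 0.52 ± 0.0563 (SE) had an adjusted p of 0.000306. Its partner Col1a1 did not move with it, with an estimate of 0.06 ± 0.0890 (SE) and an adjusted p of 0.833. Col23a1, a transmembrane chain (chr11:51289679-51583925), was at 36.8, 37.2, 38.6 and 35.2 CPM in h4 and 30.4, 30.3 and 32.1 CPM in C57BL/6J cord (log2 fold change 0.28 ± 0.0483 (SE), edgeR adjusted p = 0.00872). Col16a1 was at 39.8, 46.2, 40.2 and 40.4 CPM against 35.0, 35.8 and 36.7 CPM (log2 fold change 0.24 ± 0.0568 (SE), edgeR adjusted p = 0.0469). None of these groups overlapped. The Col16a1 call was lost without any 1 library except h4 replicate 1, and without C57BL/6J replicate 1 only Col1a2 was still called. The 8 Schwann cell markers summed to 17.8 to 20.6 TPM in h4 and to 20.1, 22.5 and 56.4 TPM in C57BL/6J cord, and reached 57.3 TPM in 1 h2 library. The meningeal markers summed to 85.7 to 99.5 TPM in h4 and 95.0 to 104.2 TPM in C57BL/6J cord, with 1 of the 16 tested called (Igfbp2, lower) and Slc22a6 at 0 in every h4 library. Their part in the collagen values was not tested.

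In h1 cord 0 of 42 collagens were called, beside 0.289% of all genes, and 6 (14.3%) had an unadjusted p under 0.05, beside 11.3%. DESeq2 called 1 in h1 cord, Col11a2, beside 0.556% of all genes. In h3 cord 0 of 42 were called, beside 1.01%, and 7 (16.7%) had an unadjusted p under 0.05, beside 13.6%. DESeq2 called 1 in h3 cord, beside 1.66% of all genes. That gene was Col12a1, lower in h3 at 31.2, 32.5, 30.0 and 27.3 CPM than in C57BL/6J cord at 36.0, 36.7 and 37.3 CPM.

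**Figure D3:**
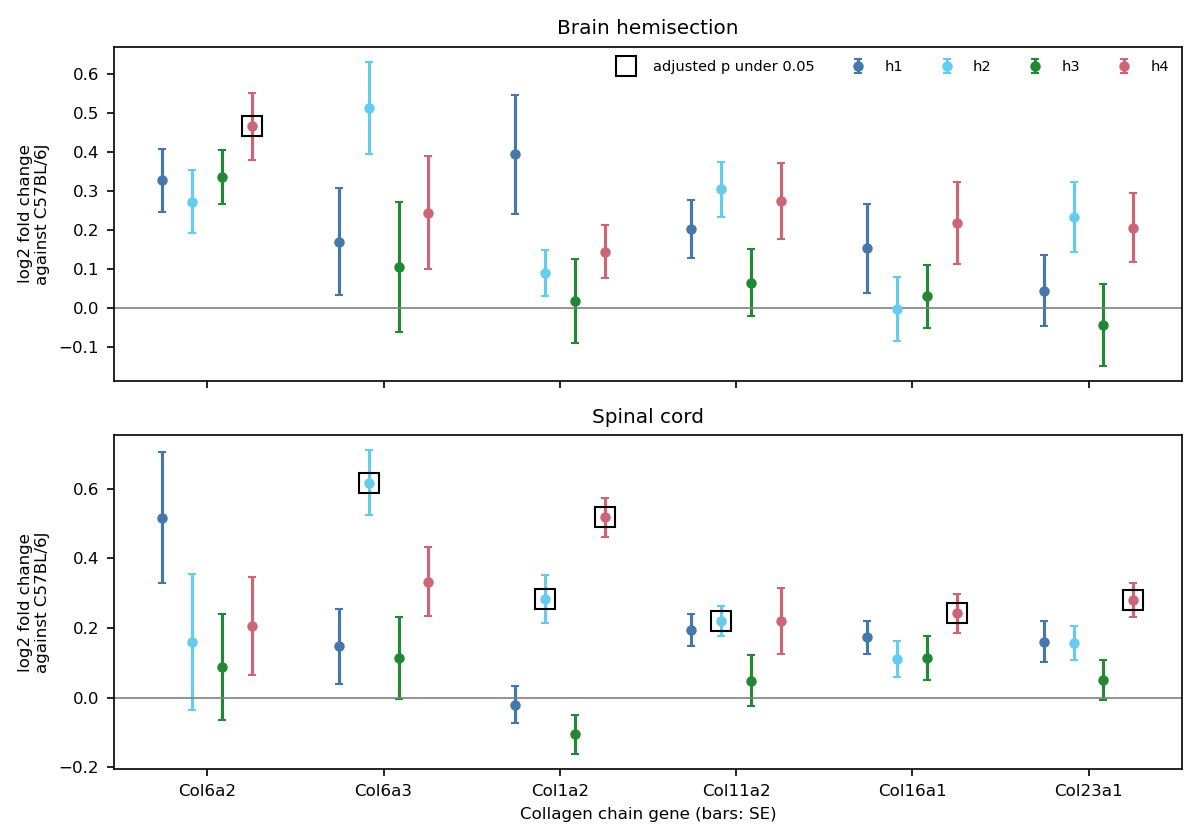
Log2 fold change against C57BL/6J, with its SE, of the 6 collagen genes called in any mutant, in brain hemisection (top) and spinal cord (bottom) of h1 to h4 mice. Black squares mark an adjusted p under 0.05, of which 1 is in brain (Col6a2) and 6 are in spinal cord.

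Genes that build, cut or bind collagen were taken from 6 lists over the same 13 comparisons, and 15 calls were made by edgeR in 1078 tests, beside the same 0.478% of 225745 tests of all genes. The list of enzymes that remove propeptides and crosslink fibrils, of 13 genes, had 6 calls in 161 tests, all higher. Adamts2, which cuts the N-terminal propeptide of types I, II and III, rose in the cords of h2 (0.58), h3 (0.41) and h4 mice (0.57), with adjusted p-values of 0.000161, 0.0249 and 0.000423 (edgeR), the values in parentheses being log2 fold changes. Bmp1, which cuts the C-terminal propeptide, rose in h2 cord (log2 fold change 0.25). Loxl2 rose in h1 cord (0.56) and Loxl3 in h4 cord (0.60), both lysyl oxidase-like enzymes. Of 20 genes for chain modification and folding, Colgalt1 rose in h2 cord (0.19) and Fkbp10 in h4 cord (0.52), and 3 calls were lower, the prolyl hydroxylase subunit P4ha1 in h3 cord (-0.52) and h4 cord (-0.38) and the collagen chaperone Serpinh1 in h3 cord (-0.44). Of 10 receptors, Ddr1 rose in h2 cord (0.22) and Adgrg1, which binds collagen III, in h4 brain (0.30) and h4 cord (0.18). Of 16 matrix partners of fibrils Fbn1 rose in h2 cord (0.35). The lists of 15 basement membrane partners and 14 degradation and uptake genes had 0 calls. In the h5 comparisons the 6 lists had 0 calls in 414 tests, beside 0.00586% of the tests of all genes there.

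The comparisons between regions of wild-type mice set tissues of the same animals against each other, and the counts below come from fits without the animal as a block. Cerebellum against cortex of DBA/1J mice called 36 of 43 collagens (20 higher, 16 lower), 83.7%, beside 58.1% of all genes. Col24a1, a fibrillar chain, was at 17.8, 18.9 and 14.9 CPM in cortex and 0.596, 0.736 and 0.566 CPM in cerebellum, a log2 fold change of -4.88 ± 0.167 (SE). Col25a1 fell with it, from 52.8, 51.9 and 69.0 CPM to 2.10, 3.22 and 3.35 CPM. In the other direction Col18a1 went from 3.81, 5.33 and 5.11 CPM in cortex to 92.3, 115.3 and 102.9 CPM in cerebellum, and Col2a1 from 0.276, 0.479 and 0.439 CPM to 11.6, 12.1 and 12.7 CPM. Col22a1, a fibril-associated chain of tissue junctions, was at 1.96 to 3.47 CPM in cortex and 0.236 to 0.805 CPM in cerebellum. All 5, which were picked by the size of their change here, were among 34 of 43 collagens that separated the regions without overlap. That share over all genes was not computed. By class, 4 of 6 type IV chains were higher and 2 were lower in cerebellum, and of the type VI chains 4 of 6 were lower and 0 higher.

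Hippocampus against cortex called 18 of 43 collagens (11 higher, 7 lower), 41.9%, beside 20.6% of all genes. Col11a1, the partner of Col11a2, was at 72.8, 51.2 and 56.6 CPM in hippocampus and 16.0, 17.4 and 18.1 CPM in cortex, a log2 fold change of 1.76 ± 0.127 (SE), and Col24a1 was lower at 3.46, 3.50 and 1.69 CPM. The transmembrane chain Col17a1 was at 0.148 to 0.395 CPM in hippocampus and at 0.826 to 1.31 CPM in cortex, and its call was lost without hippocampus replicate 3, which left 10 calls. Col8a1 and Col8a2, which form hexagonal lattices in the membrane of the corneal endothelium, were at 24.8, 13.5 and 29.6 CPM and 22.0, 9.23 and 24.8 CPM in hippocampus, against 4.16, 7.83 and 3.05 CPM and 2.00, 4.93 and 1.73 CPM in cortex.

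The Col8 genes were set beside markers of the choroid plexus, the epithelium that makes cerebrospinal fluid. The 10 markers summed to 1522 to 6318 TPM in DBA/1J hippocampus and to 24.9 to 895 TPM in DBA/1J cortex, with 0 of the 10 at 0 in every library of either group. The cortex library with the highest sum, replicate 2, also had the highest Col8a1 and Col8a2 of its group, and the h5 hippocampus library at 244 TPM had 3.25 and 3.58 CPM where the others of its group had at least 20.0 CPM. Over the 18 dissected libraries, which span 3 regions and share 6 animals, Pearson's r between log2 values was 0.96 for Col8a2, 0.945 for Col8a1, 0.94 for Col4a4 and 0.91 for Col4a3, the last being paired type IV chains of glomerular and epithelial basement membranes. These are descriptions across mixed regions, and the part of choroid plexus in the regional differences was not tested. In h5 cerebellum without replicate 3, the library with 24.2 TPM, the estimate was -0.71 for Col8a1 and -0.68 for Col8a2.

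**Figure D4:**
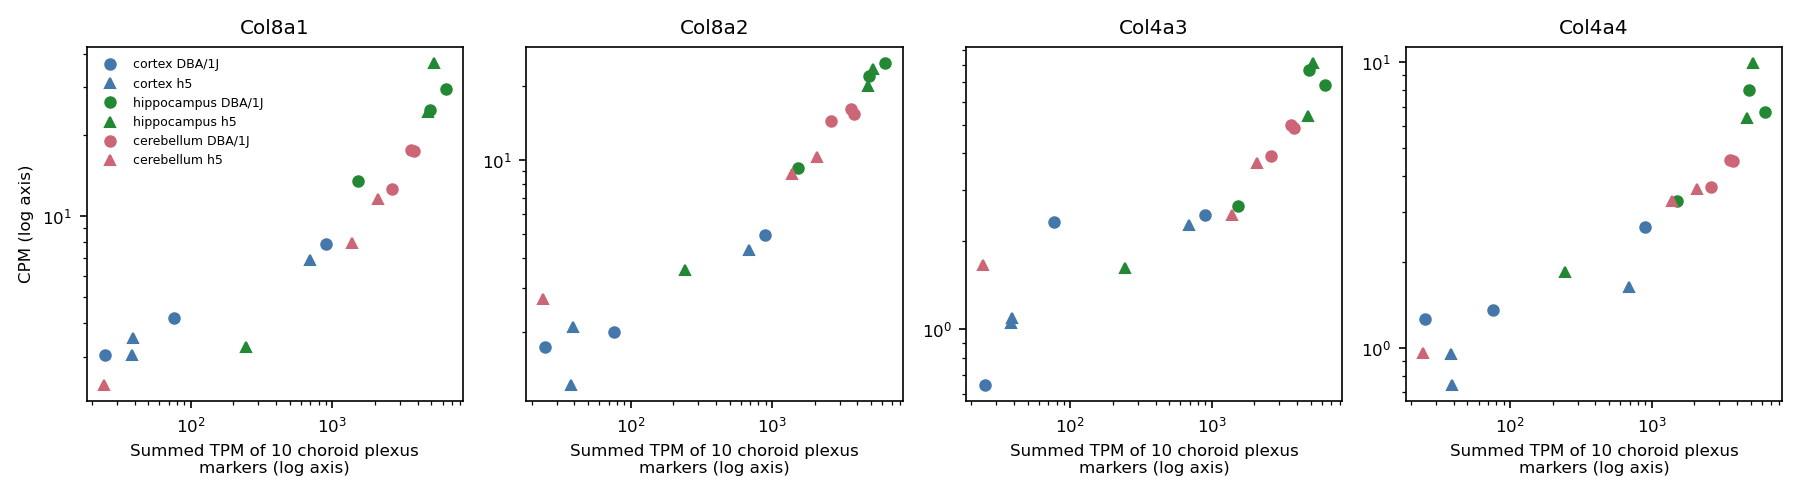
CPM of Col8a1, Col8a2, Col4a3 and Col4a4 (log axis) against the summed TPM of 10 choroid plexus markers (log axis) in 18 libraries of cortex (blue), hippocampus (green) and cerebellum (red) from DBA/1J (circles) and h5 (triangles) mice. The 10 libraries with sums of at least 1385 TPM lie above the other 8 for all 4 genes, and the h5 hippocampus library at 244 TPM is among those 8.

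Spinal cord against brain called 31 of 44 collagens in C57BL/6J (14 higher, 17 lower), 70.5%, beside 56.9% of all genes, and 23 of 42 in DBA/1J (11 higher, 12 lower), 54.8%, beside 50.8%. The cartilage-type fibrillar pair was far higher in cord, Col11a2 at 58.9, 58.2 and 61.1 CPM against 18.4, 20.7 and 19.6 CPM and Col11a1 at 79.3, 76.3 and 77.8 CPM against 20.6, 19.0 and 18.7 CPM in C57BL/6J. In DBA/1J Col11a2 differed by 1.87 ± 0.0737 (SE) on the log2 scale, and Col5a3, a minor fibrillar chain, was at 11.7, 10.2 and 13.4 CPM in cord and 3.55, 4.34 and 4.07 CPM in brain. Col6a1 was lower in cord, at 17.8, 12.9 and 18.9 CPM against 35.9, 39.6 and 44.3 CPM in DBA/1J, and so was the minor type VI chain Col6a5, at 1.31, 0.524 and 0.909 CPM against 5.21, 4.80 and 3.99 CPM. Col17a1 was at or below 0.186 CPM in the cords of both strains and between 0.337 and 1.39 CPM in their brains, and Col8a1 in C57BL/6J differed by -1.53 ± 0.149 (SE). Col10a1, the hypertrophic cartilage chain, had 0, 1 and 1 counts in the C57BL/6J cords and 21, 23 and 22 counts in the brains, so its fold change is not given.

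DBA/1J against C57BL/6J called 8 of 44 collagens in brain (6 higher, 2 lower), 18.2%, beside 11.2% of all genes, and 16 of 42 in cord (12 higher, 4 lower), 38.1%, beside 21.3%. Col6a6 (chr9:105689417-105828246) was at 4.77, 4.29 and 4.78 CPM in DBA/1J and 0.585, 0.556 and 0.569 CPM in C57BL/6J brain, and at 5.40, 5.54 and 5.99 CPM against 1.03, 1.19 and 1.20 CPM in cord, log2 fold changes of 3.06 ± 0.172 and 2.33 ± 0.146 (SE). Its neighbour Col6a4 (chr9:105990318-106096828) went the other way, at 0.518, 0.240 and 0.309 CPM in DBA/1J and 2.18, 3.29 and 2.44 CPM in C57BL/6J brain, with a log2 fold change of -2.83 ± 0.2975 (SE), and of -3.64 ± 0.498 (SE) in cord. Col6a5, which lies between them, was at 5.21, 4.80 and 3.99 CPM against 1.75, 1.18 and 1.40 CPM in brain. In cord it was at 1.31, 0.524 and 0.909 CPM against 0.755, 0.537 and 0.474 CPM, and it was not called there (edgeR adjusted p = 0.237). The 3 genes share ancestry and sequence, and the deposited counts divide reads that fit several genes among them.

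Among the longer chains Col12a1 was lower in DBA/1J cord, at 14.3, 16.4 and 16.6 CPM against 36.0, 36.7 and 37.3 CPM (log2 fold change -1.20 ± 0.0710 (SE)). In cord Col6a2 was higher, at 17.01, 11.9 and 15.2 CPM against 8.52, 7.86 and 5.31 CPM, and in brain Col6a3 was higher, at 8.315, 7.33 and 8.065 CPM against 4.65, 6.17 and 4.50 CPM. Col26a1 was lower in DBA/1J brain, at 2.62, 1.81 and 2.75 CPM against 3.93, 4.59 and 4.15 CPM (log2 fold change -0.77), and in cord (-0.79). The brain call was lost with the replicate number as a block and without any 1 of the C57BL/6J libraries, with adjusted p-values of 0.0501 to 0.0765 in edgeR. Reads of both strains were aligned to the same assembly, GRCm38, which is that of C57BL/6J, and its part in these differences was not tested.

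**Figure D5:**
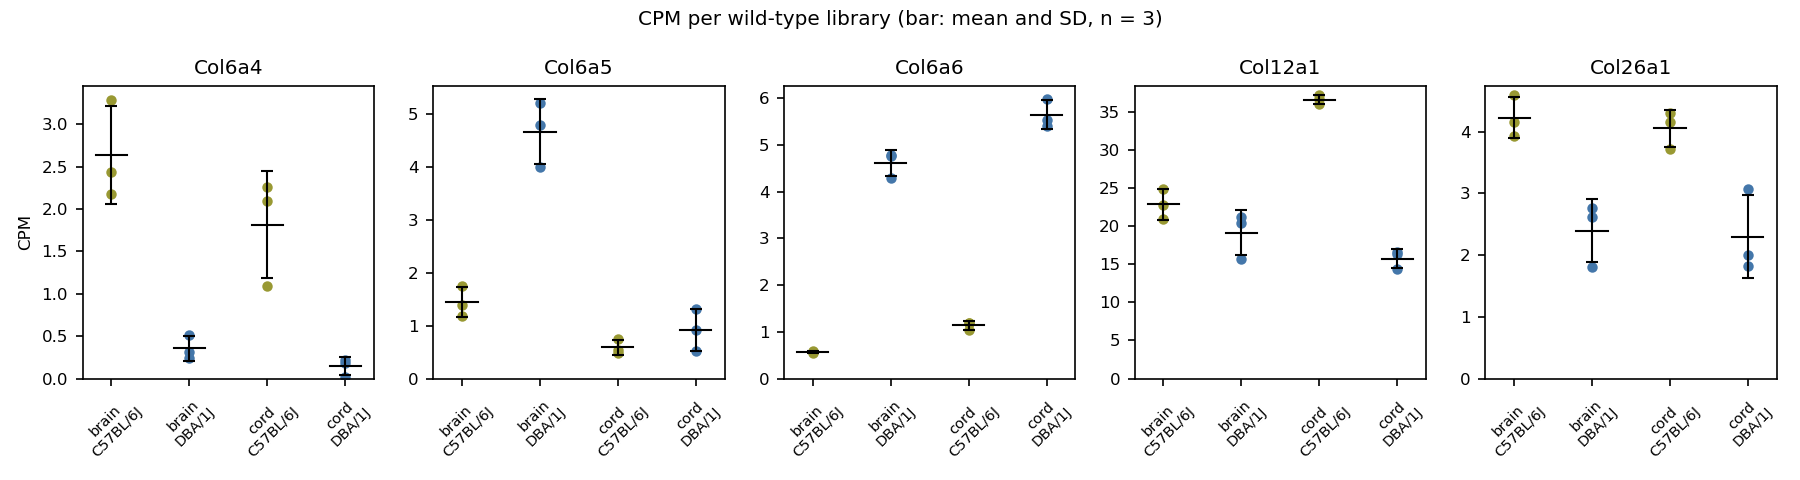
CPM of Col6a4, Col6a5, Col6a6, Col12a1 and Col26a1 in each wild-type library of brain hemisection and spinal cord, C57BL/6J and DBA/1J, with mean and SD of 3 mice. Col6a6 lies above 4 CPM in every DBA/1J library and below 1.3 CPM in every C57BL/6J library, and Col6a4 shows the reverse order.

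Several collagens lie side by side in the genome, and their levels were compared over the 66 libraries, which mix regions, strains and genotypes. Col4a1 and Col4a2 on chromosome 8 start head to head with gene models that overlap by 85 bases, and r between their log2 CPM was 0.81. Col4a3 and Col4a4 on chromosome 1 overlap by 114 bases with r = 0.86, and reads in such overlaps cannot be placed with certainty. Col6a1 and Col6a2, 85161 bases apart on chromosome 10 on the same strand, had r = 0.81. Col6a5 and Col6a6 on chromosome 9 had r = 0.61, and Col6a4 and Col6a5, at a similar distance, had r = -0.19. For Col4a5 and Col4a6, which lie 1274 bases apart head to head on the X chromosome, r was 0.20. Col3a1 and Col5a2, 24624 bases apart on chromosome 1, had r = -0.005, and Col9a1 and Col19a1 had r = -0.38.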

How the data were processed

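RNA of 66 libraries was aligned by the authors to GRCm38 with STAR after trimming with Trim Galore, and RSEM gave the deposited expected counts and TPM per gene. RSEM divides reads that fit several genes or transcripts among them, so 5.07% of the expected counts were not whole. The annotation release is not given in the sources used here. Gene symbols were joined by Ensembl identifier (GENCODE vM39, 41407 of 45706 identifiers), and positions and promoters come from RefSeq tables on GRCm38.p6, which held promoters for 35 of the 44 collagens.

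Expected counts were rounded and tested with edgeR 4.0.16's quasi-likelihood test (TMM, filterByExpr), with Benjamini-Hochberg adjustment over all genes tested and a threshold of 0.05, 1 pair of groups at a time. DESeq2 1.42.0, its size factors, no low-count filter, labelled sex, the replicate number, the identifier series, a joint fit and leaving out each library were the alternatives. CPM are rounded counts over the library total and were not TMM-scaled. The tests were tried on simulated counts. The members, lists and named genes were chosen with earlier results of these data known: named are collagens called in a mutant, the 5 smallest p-values in h5 cortex and hippocampus, the 3 highest in a wild-type group and the 5 largest called changes between regions or strains. Col6a3 in h5 cortex and Col1a1 in h4 cord are given as partners of named chains.

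Same-numbered libraries come from the same animal in the comparisons between regions. Among the others, every same-numbered pair correlated above 0.1 only in h1 brain (0.113, 0.119 and 0.198), and there the block changed no call. Mice of a group are taken as separate animals from their labels, and p-values measure the spread between them. The level of 1 marker gene is not reported here.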

Additional observations from a re-analysis of the deposited data

Results flagged for a closer look

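In 36 group values examined in groups of 4 mice, 4 libraries lay far from the other 3, and chance alone gives about 1 such flag in 20 groups. Col6a2 in h4 brain was at 20.7274 CPM in replicate 2 where the others were at 15.9827, 16.0143 and 16.1313 CPM. Col16a1 in h4 spinal cord was at 46.2213 CPM where the others were at 39.817, 40.2195 and 40.3951 CPM. Col16a1 in h2 brain was at 18.3549 CPM where the others were at 15.9954, 16.3268 and 16.3304 CPM. Col1a2 in h2 spinal cord was at 32.1728 CPM where the others were at 39.8054, 39.8419 and 40.4537 CPM.

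In 2 genes every library of a mutant lay on one side of its controls in one group and on the opposite side in another, in CPM without TMM scaling. Col12a1 had a log2 fold change of -0.2459 in h3 cord and 0.4495 in h5 cord. Without h5 replicate 3, the library with high Schwann cell and meningeal markers, the h5 estimate was 0.16. Col1a2 had a log2 fold change of -0.0203 in h1 cord, an estimate of hardly any change, and 0.5181 in h4 cord. Both differences were not tested.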

How the results depend on the processing

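The 47 pairs of a named gene and a comparison kept their direction under the alternatives run for them, and leaving out a library was not followed gene by gene for the other collagens called. Col3a1 in h5 cord, which was not called, went from 1.59 to -0.12 without h5 replicate 3, and the median of the collagens there from 0.24 to -0.05. With DESeq2 the collagens called numbered 1 in h3 brain, 2 in h4 brain, 2 in h5 brain, 1 in h1 cord, 1 in h3 cord and 5 in h5 cortex. With no low-count filter they numbered 2 in h4 brain, 2 in h1 cord, 1 in h3 cord, 3 in h5 cortex (Col3a1, Col1a2 and Col1a1) and 1 in h5 cerebellum. With labelled sex as a covariate 1 was called in h1 cord. For the dissected h5 mice that covariate holds the label that Ddx3y goes against, so it cannot account for sex there. In h5 cortex 1 was called with the animals' identifier series as a block, and 1 in a single fit of the 6 dissected groups. Leaving out 1 library at a time gave 0 to 2 calls in h4 brain, 1 to 3 in h2 cord, 1 to 3 in h4 cord, 0 to 5 in h5 cortex and 10 to 19 between hippocampus and cortex. DESeq2 size factors moved no count by more than 1.5 times. With the replicate number as a block, 1 collagen was called in h1 cord, where the main test called 0, and Col16a1 in h4 cord (adjusted p = 0.0583) and Col26a1 between strains in brain (0.0557) were lost in edgeR. The block moved no other count of collagens called by more than 1.5 times, including the comparisons between regions of the same animals. The cause of these changes was not tested. With 3 or 4 mice in a group, a value that missed the threshold does not show that a gene was alike in both groups.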
